A study of Mus musculus with 6 samples.

Results

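The endothelin, angiotensin and mineralocorticoid axis was followed through 9 genes, namely Edn1, Ece1, Ednra, Ednrb, Agt, Ace, Agtr1a, Nr3c2 and Hsd11b1. They were taken by name, and every probe set annotated to 1 of these symbols alone was used. That gave 13 of the 38195 probe sets tested, for 8 of the 18029 genes with a value, and 3 genes had several probe sets. Ednra, which encodes the ETA receptor, was not analysed here.

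The samples were hearts of 3 Tmbim1 KO mice and 3 Flox wild type mice (genotype label Flox; wild type), all on the C57BL/6 background. All 6 mice are given as 8 weeks old with 2 weeks of aortic banding (spelled binding in the labels), a surgical narrowing that loads the left ventricle. Hearts without a band were not analysed here, so each value below sets knockout against wild type within the loaded heart. The cells in which Tmbim1 was deleted, and any Cre driver, are not given in the sources used here.

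Endothelins are vasoconstrictor peptides that are cut from larger precursors by endothelin converting enzyme and act on the ETA and ETB receptors. Angiotensinogen is cleaved by renin and then by angiotensin converting enzyme to angiotensin II, which acts mainly through the AT1 receptor and drives the release of aldosterone from the adrenal gland. Aldosterone and glucocorticoids both bind the mineralocorticoid receptor. In the loaded heart these systems are known for their part in vascular tone, hypertrophy and fibrosis.

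Of the axis genes with a value, the receptor gene Ednrb was higher and the receptor gene Nr3c2 was lower in Tmbim1 KO hearts, and no other axis gene passed the test. Ednrb rose at 2 of its 3 probe sets, by 0.93 and 0.88 on the log2 scale, and Nr3c2 fell by 0.60 at its only probe set. Among the 13 probe sets, 2 rose, where 0.238% of all probe sets did, and 1 fell, where 0.183% of all probe sets did. These calls are at an adjusted p under 0.05 by limma over all probe sets. Groups that did not overlap were seen for 5 of the 13 as higher in KO hearts (6.74% of all probe sets) and for 1 as lower (8.42% of all probe sets). Those 5 are repeat readings of Ednrb and Ace. By gene, at main probe sets, 2 of 8 were apart as higher and 1 as lower. Of all 18029 main probe sets these were 1324 and 1692. Before adjustment, 6 of the 13 had a limma p under 0.05, against 10.6% of all probe sets. The median difference of the 13 was 0.02 and their differences ran from -0.60 to 0.93, while the median of all probe sets was -0.0022.

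Promoter sequences are shown for the 2 receptor genes that passed and for Edn1, the ligand gene of the axis, so that the genes can be compared at their starts. Each runs 5′ to 3′ on the strand of the gene, from 250 bases before the start annotated by RefSeq to 50 after it, on GRCm38.p6. The Ednrb window is chr14:103843652-103843951 on the minus strand, the Nr3c2 window is chr8:76902080-76902379 on the plus strand, and the Edn1 window is chr13:42301226-42301525 on the plus strand. Capitals mark matches, on either strand, to motifs known from these pathways. These are AP-1, a GATA core, a hypoxia element core, the corticosteroid receptor hexamer and the full corticosteroid receptor element. The full element leaves a letter of the hexamer free, so it need not contain that exact hexamer.
Ednrb: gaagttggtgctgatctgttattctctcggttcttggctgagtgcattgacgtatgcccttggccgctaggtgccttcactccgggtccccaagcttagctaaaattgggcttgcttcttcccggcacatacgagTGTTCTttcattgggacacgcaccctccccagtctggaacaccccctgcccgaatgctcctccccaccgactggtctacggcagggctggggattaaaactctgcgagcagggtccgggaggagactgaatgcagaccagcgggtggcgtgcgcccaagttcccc
Nr3c2: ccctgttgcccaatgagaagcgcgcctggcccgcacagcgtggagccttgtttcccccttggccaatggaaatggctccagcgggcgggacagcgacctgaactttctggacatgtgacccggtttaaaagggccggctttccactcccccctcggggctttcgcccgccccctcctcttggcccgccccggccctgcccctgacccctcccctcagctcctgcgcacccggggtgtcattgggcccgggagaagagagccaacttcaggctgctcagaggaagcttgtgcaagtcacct
Edn1: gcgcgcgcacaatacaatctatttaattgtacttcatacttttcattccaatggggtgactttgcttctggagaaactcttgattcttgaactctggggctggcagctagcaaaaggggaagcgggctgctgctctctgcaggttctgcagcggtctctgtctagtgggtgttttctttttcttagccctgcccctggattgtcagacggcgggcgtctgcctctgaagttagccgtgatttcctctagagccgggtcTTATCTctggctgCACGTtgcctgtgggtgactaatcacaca

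The Ednrb window held 1 match, a corticosteroid hexamer whose first base lies at -115 from the start. That hexamer, spelled TGTTCT, was found in 19% of the 32851 promoter windows of the same length in the RefSeq table. The Nr3c2 window held no match to any of the motifs, and its GC content of 65.7% lay above the median of 52.7% over all windows. The Edn1 window held a GATA core spelled AGATAA (11.2% of all windows) and a hypoxia element core spelled ACGTG (19.6% of all windows), both after the annotated start. Matches to the AP-1 motif TGANTCA, present in 7.81% of all windows, and the full corticosteroid element, present in 1.31%, were absent from these 3 windows. A match describes the letters only, and so does the lack of one.

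Tmbim1 itself checks the labels. Its log2 signal was 7.53, 7.49 and 7.56 in KO hearts, against 8.58, 8.38 and 8.33 in wild type hearts. Every KO heart lay below every wild type heart, and the difference was -0.91 (SE 0.10, limma adjusted p = 0.00579); without KO array 2 it was -0.89 (limma adjusted p = 0.0512). Of 10 atrial markers 1 rose by limma, where 0.322% of all main probe sets did. It was Nppa, the natriuretic peptide gene that a loaded ventricle also expresses, at 13.78, 13.63 and 13.36 in KO hearts, against 12.67, 12.67 and 11.85 in wild type hearts, a rise of 1.19 (limma adjusted p = 0.0496). All 3 KO hearts lay above the wild type hearts, and the call ended when any array but wild type array 3 was left out (differences from 1.10 to 1.33, limma adjusted p from 0.0756 to 0.206). In all, 10 of 16 alternative fits ended the call. The Nppa signals of the KO hearts also lay near the maxima of their arrays (13.78, 13.69 and 13.66). Other atrial genes were high on KO array 1 alone, such as Myl7, chosen after its values were seen, at 12.86 there and 3.90 and 3.71 in the other KO hearts. The summed signal of the atrial markers was 10815 to 35191 in KO hearts and 4033 to 6846 in wild type hearts. Nppa made up most of that sum on every array except KO array 1, so elsewhere the sum mainly followed Nppa. Wild type array 3 stood farthest out on the first principal component. Of genes that answer stress and handling of tissue, 2 of 11 heat shock genes rose (median 0.27) and 4 of 17 immediate early genes rose (median 0.72) by limma, again beside 0.322% of all main probe sets. They were Hspa1b (2.33) and Hspa1a (2.20), chaperone genes, and Egr2 (2.19), Atf3 (1.66), Ier3 (1.23) and Btg2 (1.10), with limma adjusted p from 0.00124 to 0.0444. Leaving out some single arrays ended the calls of Hspa1a, Egr2 and Btg2 (limma adjusted p up to 0.148, 0.196 and 0.0991). The other probe sets of Hspa1b and Egr2 passed, and that of Btg2 did not (0.81, limma adjusted p = 0.082). Without adjustment, 6 of 11 heat shock genes and 14 of 17 immediate early genes had a limma p under 0.05, all higher. Of all 18029 main probe sets, 936 were so higher and 1142 lower. Groups were apart as higher for 6 heat shock and 12 immediate early genes, and as lower for 1 and 0. Over all main probe sets 1324 were apart as higher and 1692 as lower. All 17 immediate early genes had a positive difference. The part of atrial and stress genes in the axis results was not tested.

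Edn1, the precursor gene of endothelin, showed no difference beyond the spread between hearts. Its log2 signal was 6.07, 5.70 and 5.64 in KO hearts, against 5.82, 5.65 and 5.50 in wild type hearts. The groups overlapped, and the highest value came from KO array 1. The difference was 0.15 (SE 0.14, 95% interval -0.15 to 0.45, limma adjusted p = 0.791). It was 0.02 without KO array 1, 0.07 without wild type array 3 and -0.06 without both.

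Ece1 encodes the endothelin converting enzyme, a membrane protease that releases the active peptide. At its main probe set, chosen for its mean signal, the log2 signal was 7.49, 6.90 and 7.31 in KO hearts, against 7.28, 7.18 and 7.42 in wild type hearts. The KO hearts spanned the wild type ones on both sides. The difference was -0.06 (SE 0.15, 95% interval -0.39 to 0.27, limma adjusted p = 0.949), and it was 0.02 at each of the other 2 probe sets. All 3 probe sets had their highest value on KO array 1 and their lowest on KO array 2, with ranges among KO hearts of 0.59, 0.62 and 0.71 against 0.25, 0.38 and 0.41 among wild type hearts. The wider spread among KO hearts was thus shared by separate probe sets of the gene, and no test of it was made.

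Ednrb encodes the ETB receptor, which on endothelium signals through nitric oxide and clears endothelin from the circulation, and on smooth muscle contracts the vessel. Its main probe set had a log2 signal of 7.60, 7.59 and 7.37 in KO hearts, against 6.75, 6.79 and 6.38 in wild type hearts. The lowest KO heart stood 0.58 above the highest wild type heart. The difference of 0.88 (SE 0.13, 95% interval 0.59 to 1.17, limma adjusted p = 0.0280) corresponds to a 1.84-fold higher signal.

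The other Ednrb probe sets differed in the same direction. The second was at 5.92, 5.59 and 5.55 in KO hearts, against 4.63, 4.77 and 4.86 in wild type hearts, a difference of 0.93 (SE 0.12, 95% interval 0.66 to 1.20, limma adjusted p = 0.0138). The third was at 5.09, 4.93 and 4.81 in KO hearts, against 4.61, 4.44 and 4.46 in wild type hearts, a difference of 0.44 (SE 0.11, 95% interval 0.20 to 0.68) that did not pass (limma adjusted p = 0.150). All 3 KO hearts lay above all 3 wild type hearts at every one of the 3 probe sets, and KO array 1 was highest at each. The mean of the 3 probe sets differed by 0.75 (limma adjusted p = 0.0140 in a fit of gene means).

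The call of Ednrb depended on the arrays, while its direction did not. Leaving out any single array kept the difference at the main probe set between 0.75 and 0.96 but ended its call (limma adjusted p from 0.0548 to 0.147). At the second probe set the call held without KO array 1, KO array 3 or wild type array 3 (differences 0.81, 0.998 and 0.98, limma adjusted p = 0.0475, 0.0389 and 0.0317) and ended without each of the others. Without both KO array 1 and wild type array 3 the differences were 0.71 and 0.87 at these probe sets, with limma adjusted p = 0.196 and 0.0738.

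**Figure D1:**
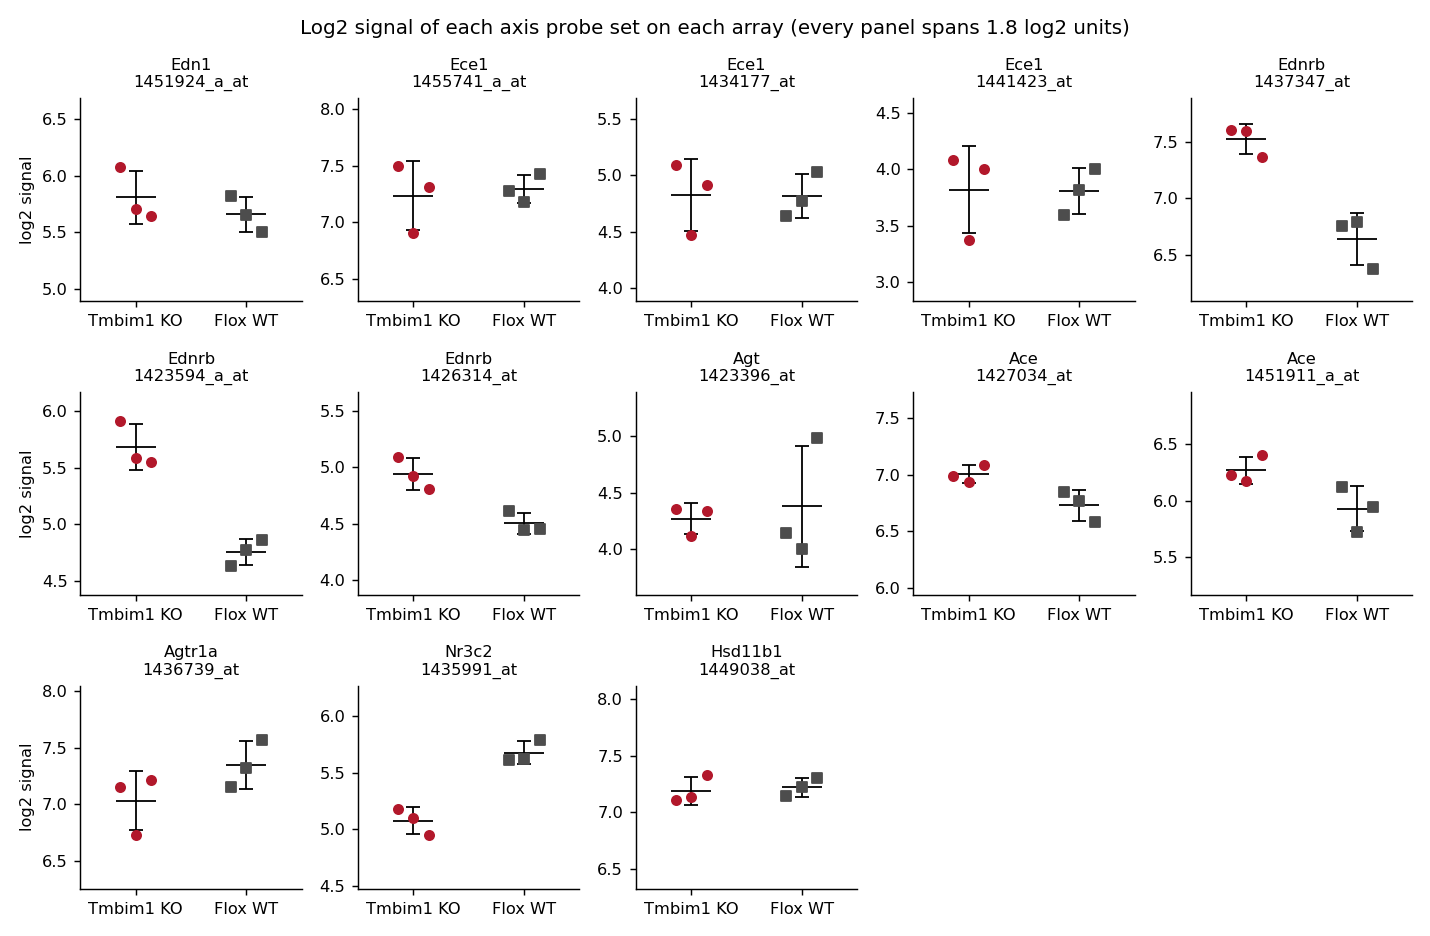
Each panel plots the log2 signal (vertical axis) of 1 axis probe set on every array, with the 3 Tmbim1 KO hearts as circles on the left and the 3 Flox WT hearts as squares on the right. Horizontal bars are group means and whiskers SDs (n = 3 each), and all panels span the same number of log2 units; the groups are apart at the 3 Ednrb, the 2 Ace and the Nr3c2 probe sets, and overlap elsewhere.

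ETB receptors sit on endothelial cells, smooth muscle cells and other cells of the heart, so the markers of these cells are given beside the Ednrb result. None of the 15 endothelial markers passed, their median difference was 0.08, and their summed linear signal was 9095 to 10224 in KO hearts and 8840 to 9312 in wild type hearts. None of the 13 smooth muscle and pericyte markers passed (median 0.06), with sums of 10076 to 12203 in KO hearts and 10116 to 10987 in wild type hearts. Fabp4 made up most of the endothelial sum on every array, and Rgs5 and Des together most of the smooth muscle and pericyte sum. These sums thus mainly followed those genes. None of the 14 fibroblast markers passed (median 0.27), with sums of 17695 to 19746 in KO hearts and 11017 to 17839 in wild type hearts. Single markers within each list ran both ways. Of the endothelial ones with the smallest p, the junction gene Cldn5 differed by 0.63, Pecam1 by -0.18 and the VEGF receptor gene Kdr by -0.21 (limma adjusted p = 0.0997, 0.523 and 0.579). Of the smooth muscle and pericyte ones, the channel subunit gene Abcc9 differed by -0.64 and the contractile genes Tagln and Cnn1 by 0.88 and 1.42 (limma adjusted p = 0.0716, 0.2 and 0.411). Of the fibroblast ones, the collagen gene Col1a1 differed by 0.40, Scara5 by -1.04 and the matrix gene Mfap5 by 0.80 (limma adjusted p = 0.128, 0.185 and 0.323). With no adjustment, 1 endothelial, 2 smooth muscle and pericyte and 5 fibroblast markers were higher at a limma p under 0.05. In the same order, 0, 2 and 2 were lower. Of all 18029 main probe sets, 936 were higher and 1142 lower. Groups were apart as higher for 1, 2 and 3 of these markers and as lower for 1, 1 and 1. Over all main probe sets 1324 were apart as higher and 1692 as lower. The part of cell mix in the Ednrb result was not tested. No marker was at 0, the dimmest of these lists being Robo4 (6.63), Cnn1 (5.61) and Scara5 (5.67) on the log2 scale. In RNA from mixed heart tissue, fewer cells of a type and less RNA per cell cannot be told apart.

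Agt encodes angiotensinogen, the precursor of the angiotensin peptides, which is made mostly in liver. Its log2 signal was 4.36, 4.12 and 4.34 in KO hearts, against 4.15, 4.0015 and 4.99 in wild type hearts. The high value of wild type array 3 set the mean of its group. The difference was -0.11 (SE 0.22, 95% interval -0.60 to 0.38, limma adjusted p = 0.926), and it turned to 0.20 (limma adjusted p = 0.708) without that array.

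Ace encodes angiotensin converting enzyme, carried largely by endothelial cells. Its main probe set was at 6.99, 6.93 and 7.09 in KO hearts, against 6.84, 6.77 and 6.58 in wild type hearts. The second was at 6.23, 6.17 and 6.40 in KO hearts, against 6.12, 5.72 and 5.95 in wild type hearts. At both probe sets the KO hearts stood above the wild type hearts without overlap, by gaps of 0.09 and 0.05 between the nearest hearts. The differences of 0.27 (SE 0.10, 95% interval 0.04 to 0.51) and 0.34 (SE 0.12, 95% interval 0.07 to 0.61) had unadjusted p of 0.0257 and 0.0197 and did not pass (limma adjusted p = 0.374 and 0.339). They were positive in every alternative run, from 0.20 to 0.33 at the main probe set. As listed above, the endothelial markers as a group had a median of 0.08.

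Agtr1a encodes the main AT1 receptor of the mouse, through which angiotensin II constricts vessels and promotes growth. Its log2 signal was 7.15, 6.73 and 7.21 in KO hearts, against 7.15, 7.33 and 7.57 in wild type hearts. KO array 2 was lowest and wild type array 3 highest, and the groups overlapped. The difference of -0.32 (SE 0.15, 95% interval -0.65 to 0.02) did not pass (limma adjusted p = 0.508), and it shrank to -0.17 without KO array 2. A fall of up to 0.65 on the log2 scale therefore lies within the interval.

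**Figure D2:**
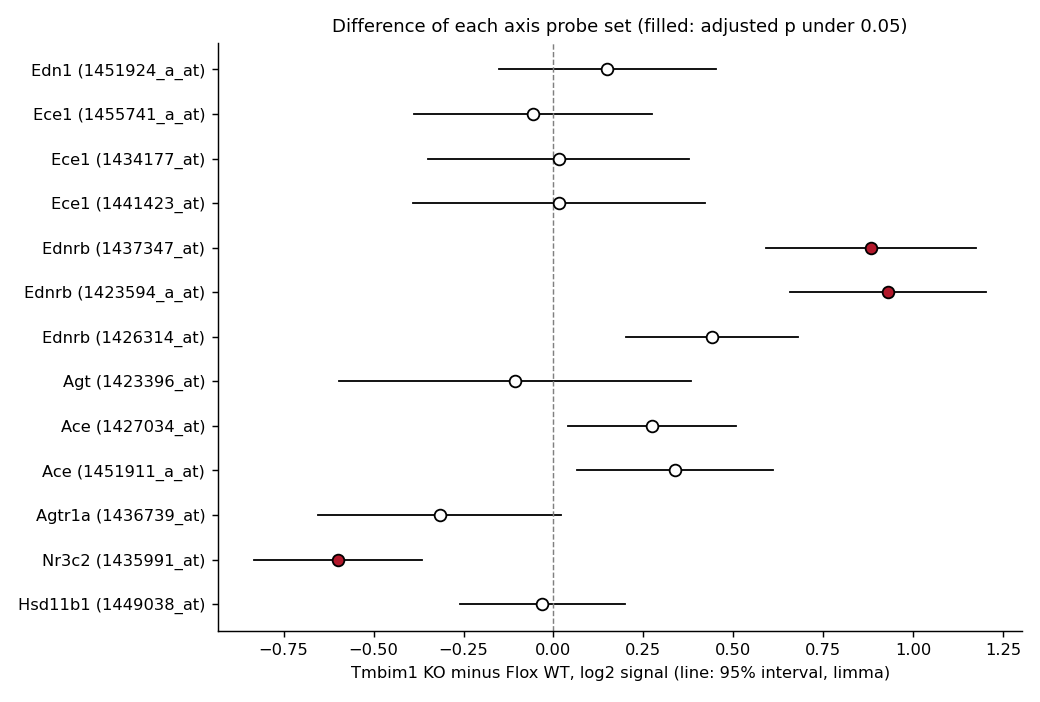
Points give the Tmbim1 KO minus Flox WT difference in log2 signal (horizontal axis) of each of the 13 axis probe sets (vertical axis), and lines its 95% interval from limma. Filled points passed at an adjusted p under 0.05, namely 2 Ednrb probe sets on the right and Nr3c2 on the left, while the intervals of Edn1, Ece1, Agt, Agtr1a and Hsd11b1 span 0.

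Nr3c2 encodes the mineralocorticoid receptor, a nuclear receptor that in cardiomyocytes, macrophages and vessel walls has been tied to hypertrophy and fibrosis. Its log2 signal was 5.18, 5.10 and 4.95 in KO hearts, against 5.61, 5.62 and 5.79 in wild type hearts. The highest KO heart lay 0.43 below the lowest wild type heart. The difference of -0.60 (SE 0.10, 95% interval -0.83 to -0.37, limma adjusted p = 0.0488) corresponds to a 1.51-fold lower signal. The gene has 1 probe set in the table, so no second reading of it was had.

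The adjusted p of Nr3c2 lay at the threshold. Any single array left out ended its call, with differences from -0.65 to -0.54 (limma adjusted p from 0.0947 to 0.183), and so did a trended variance prior (limma adjusted p = 0.0557). All 13 cardiomyocyte markers had negative differences, none past the test, with a median of -0.15, and their summed signal was 99438 to 103300 in KO hearts and 108558 to 112941 in wild type hearts, without overlap. The dimmest of them was Ryr2, the calcium release channel gene, at a mean log2 signal of 10.13 and a difference of -0.41, beside -0.34 for titin, Ttn, and -0.25 for the creatine kinase gene Ckm (limma adjusted p = 0.2, 0.34 and 0.498). None of the 14 macrophage markers passed, and they had a median of 0.28, with sums of 3917 to 4461 in KO hearts and 3014 to 3945 in wild type hearts. Those with the smallest p were Lyve1 at 0.79, the complement gene C1qa at 0.42 and the Fc receptor gene Fcgr1 at 0.40 (limma adjusted p = 0.158, 0.218 and 0.286). At their other probe sets Lyve1 differed by 0.55 and Fcgr1 by -0.15. Groups were apart as lower for 9 of 13 cardiomyocyte markers and as higher for 5 of 14 macrophage markers, and 0 the other way. Of all 18029 main probe sets, 1692 were apart as lower and 1324 as higher. At an unadjusted limma p under 0.05, 2 cardiomyocyte markers were lower and 6 macrophage markers higher, again 0 the other way. Over all main probe sets these counts were 1142 lower and 936 higher. The part of cell mix in the Nr3c2 result was not tested.

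Hsd11b1 encodes an enzyme that regenerates active glucocorticoid inside cells, which raises the supply of ligand to both corticosteroid receptors. Its log2 signal was 7.11, 7.13 and 7.33 in KO hearts, against 7.14, 7.22 and 7.31 in wild type hearts. The 6 hearts lay within a narrow band and the groups overlapped fully. The difference was -0.03 (SE 0.10, 95% interval -0.26 to 0.20, limma adjusted p = 0.962).

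**Figure D3:**
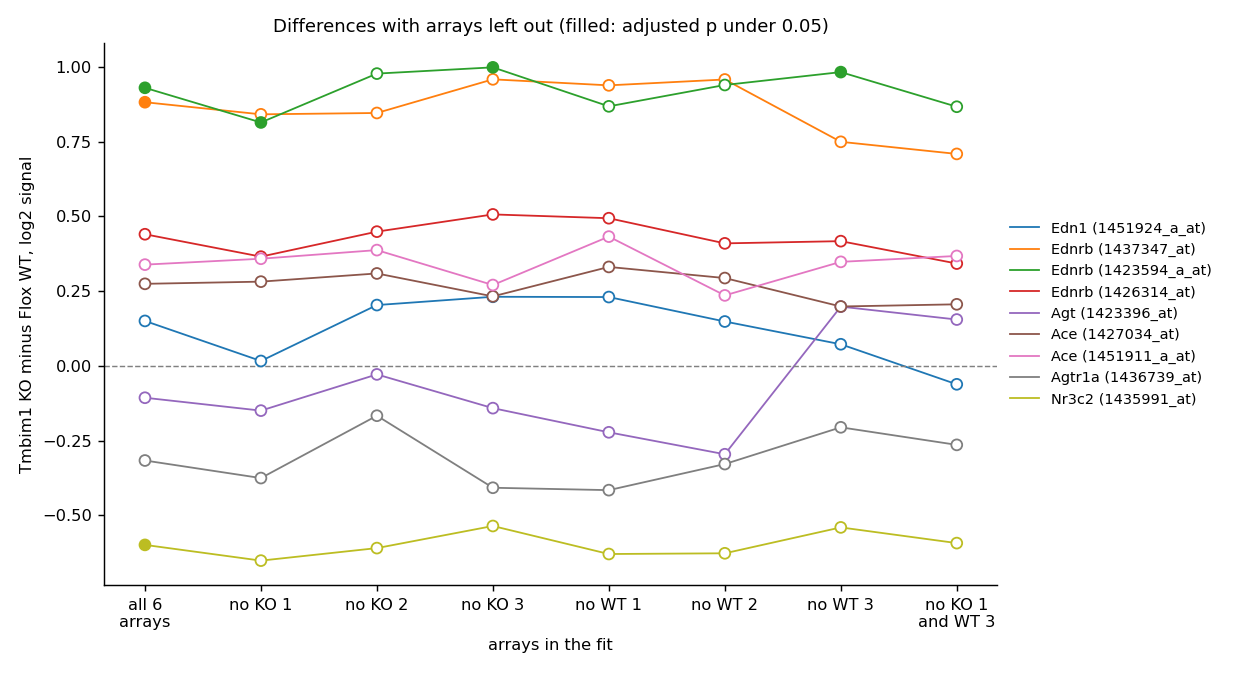
The vertical axis gives the Tmbim1 KO minus Flox WT difference in log2 signal and the horizontal axis the arrays in the fit, from all 6 arrays through each array left out to both arrays that stand apart left out. Filled points passed at an adjusted p under 0.05; the 3 Ednrb lines stay above 0 and Nr3c2 stays below it in every fit, while Agt changes sign without wild type array 3 and both Agt and Edn1 do so without both arrays.

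The other genes of these pathways were read from lists of 102 entries, of which 93 had a value at a main probe set. Of these, 3 rose and 0 fell by limma over all probe sets, and all 3 were on the list of corticosteroid receptor targets. Over all main probe sets 0.322% rose and 0.227% fell. Before adjustment, 2078 of the 18029 main probe sets had a limma p under 0.05, to set beside the unadjusted counts of the lists below.

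Among other renin and angiotensin genes, 0 of 21 passed by limma, with a median difference of -0.04 and 5 at an unadjusted p under 0.05. Cma1 encodes chymase, a mast cell protease that can form angiotensin II. It was at 3.53, 3.08 and 3.68 in KO hearts, against 3.91, 4.20 and 3.85 in wild type hearts, a difference of -0.56 (limma adjusted p = 0.218). Mme, the gene of neprilysin, which degrades angiotensins and endothelins, was at -0.55 (limma adjusted p = 0.249), and Agtpbp1 was at -0.26 (limma adjusted p = 0.325). At their other probe sets Mme differed by 0.04 and Agtpbp1 by -0.18 and -0.04. Of the 9 mast cell markers, Cma1 among them, 0 passed by limma and 1 had an unadjusted p under 0.05, and their median was 0.05. All but Hdc lay below the median signal of each array (4.235 to 4.283), and the dimmest was Fcer1a at a mean of 1.88. That median thus rests on dim signals. The stem cell factor receptor gene Kit differed by -0.34 and the IgE receptor gene Ms4a2 by 0.16 (limma adjusted p = 0.541 and 0.736). Agtr2, the gene of the other class of angiotensin receptor, was named for its role, and its log2 signal of 1.67 in KO hearts and 1.57 in wild type hearts was under the lower quartiles of the arrays (2.72 to 2.78).

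Among other endothelin genes, 0 of 5 passed by limma, with a median of 0.18 and 1 at an unadjusted p under 0.05. Edn2, another endothelin ligand gene, was at 0.28 (limma adjusted p = 0.426), with each value below the lower quartile of its array, and Ece2 was at 0.21 (limma adjusted p = 0.682). Edn3 encodes the ligand that in development acts through the ETB receptor. Its main probe set differed by 0.18 (limma adjusted p = 0.683), and 3 other probe sets differed by 0.46, 0.57 and 0.33 (limma adjusted p = 0.150, 0.156 and 0.555). At the first of these the log2 signal was 5.63, 5.34 and 5.65 in KO hearts, against 5.0002, 5.14 and 5.10 in wild type hearts. At the second it was 4.15, 3.98 and 4.41 in KO hearts, against 3.65, 3.80 and 3.39 in wild type hearts. All 4 Edn3 probe sets had positive differences and none passed, and the groups were apart at these 2 and overlapped at the others.

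Genes that make, convert or chaperone corticosteroids and their receptors gave 0 calls among 11 by limma, with a median of 0.05 and 3 at an unadjusted p under 0.05. Star, which carries cholesterol into mitochondria for steroid synthesis, was at 5.93, 6.68 and 5.37 in KO hearts, against 5.14, 4.29 and 3.97 in wild type hearts. The groups did not overlap, and the difference of 1.53 (SE 0.34) did not pass (limma adjusted p = 0.114). At its other probe sets the groups overlapped, with differences of 0.78 and 0.36, and the mean of all its probe sets differed by 0.89 (limma adjusted p = 0.204). Fkbp4, a cochaperone of steroid receptors, was at -0.57 (limma adjusted p = 0.171) and Cyp21a1, the steroid hydroxylase gene, at 0.26 (limma adjusted p = 0.404). At their other probe sets the differences were -0.02 and -0.03. Further genes were named for their role. The glucocorticoid receptor gene Nr3c1 differed by -0.17 (limma adjusted p = 0.652). Its groups were apart as lower in KO hearts, as those of Nr3c2 were, with a highest KO heart of 8.0052 and a lowest wild type heart of 8.0353. Hsd11b2, whose enzyme inactivates glucocorticoids and so guards the mineralocorticoid receptor in kidney, differed by 0.11 (limma adjusted p = 0.836). The aldosterone synthase gene Cyp11b2 differed by 0.05 (limma adjusted p = 0.938). Mean log2 signals in KO and wild type hearts were 3.27 and 3.16 for Hsd11b2, and 3.07 and 3.02 for Cyp11b2. Both genes were thus dim, below the median signal of each array (4.235 to 4.283). Of the corticosteroid receptor genes, Nr3c2 thus passed and Nr3c1 did not, and the difference between the changes of these genes was not tested.

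Of 21 genes known to respond to corticosteroid receptors, 3 rose and 0 fell by limma, 16 had a positive difference and the median was 0.26, where the median of all main probe sets was -0.002. Adamts1, a secreted metalloprotease, was at 8.63, 8.27 and 8.70 in KO hearts, against 7.38, 7.16 and 7.30 in wild type hearts, a rise of 1.26 (SE 0.13, limma adjusted p = 0.00485). Mt2, a metal-binding metallothionein, rose by 0.94 (SE 0.10, limma adjusted p = 0.00579) and Errfi1, a feedback inhibitor of EGF receptors, by 1.12 (SE 0.14, limma adjusted p = 0.0102). Errfi1 differed by 0.69 at its other probe set, which did not pass (limma adjusted p = 0.117). Adamts1, Mt2 and Errfi1 also respond to signals other than steroids. The genes most often used as readouts of the receptors, named here for that role, did not pass: Sgk1 was at 0.62 (limma adjusted p = 0.197), Per1 at 0.74 (limma adjusted p = 0.0605), Fkbp5 at 0.26 (limma adjusted p = 0.504), Zbtb16 at 0.35 (limma adjusted p = 0.475) and Tsc22d3 at 0.17 (limma adjusted p = 0.737). On the same list Klf15, Nedd4l and Ndrg2, named because their KO hearts all lay below the wild type hearts, differed by -0.49, -0.25 and -0.25 and did not pass (limma adjusted p = 0.301, 0.383 and 0.394). The groups were apart for 10 genes of this list as higher and for 3 as lower. Sgk1, Per1 and Fkbp5 were among the 10. So were Lgals3 (1.92), Lcn2 (0.99), Dusp1 (0.62) and Cdkn1a (0.51), named after their values were seen. They did not pass either (limma adjusted p = 0.176, 0.354, 0.227 and 0.095). Of all 18029 main probe sets, 1324 were apart as higher and 1692 as lower. Before adjustment 9 genes of the list were higher and 3 lower at a limma p under 0.05. The matching counts were 936 and 1142 of the 18029 main probe sets. Without both KO array 1 and wild type array 3 the rises were 1.22, 0.84 and 1.04 for Adamts1, Mt2 and Errfi1 (limma adjusted p = 0.0656, 0.0945 and 0.13), and the call of Errfi1 also ended without KO array 1 or KO array 2 (1.04 and 1.09, limma adjusted p = 0.0531 and 0.0836).

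The proteins that carry the signal from the AT1 and endothelin receptors, from Gq subunits to calcineurin and NFAT, gave 0 calls among 35 by limma, with a median of 0.04 and 6 at an unadjusted p under 0.05. Grk5, a kinase that desensitises receptors, was at 8.07, 8.29 and 7.90 in KO hearts, against 7.85, 7.44 and 7.63 in wild type hearts, a difference of 0.44 (limma adjusted p = 0.248). Camk2d, the cardiac calcium and calmodulin kinase, was at -0.36 (limma adjusted p = 0.397) and the protein kinase C gene Prkce at -0.28 (limma adjusted p = 0.4). Rcan1, a calcineurin inhibitor whose transcript follows calcineurin activity, was named for that role and was at 0.40 (limma adjusted p = 0.442). Differences in this list ran in both directions, 22 positive and 13 negative.

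**Figure D4:**
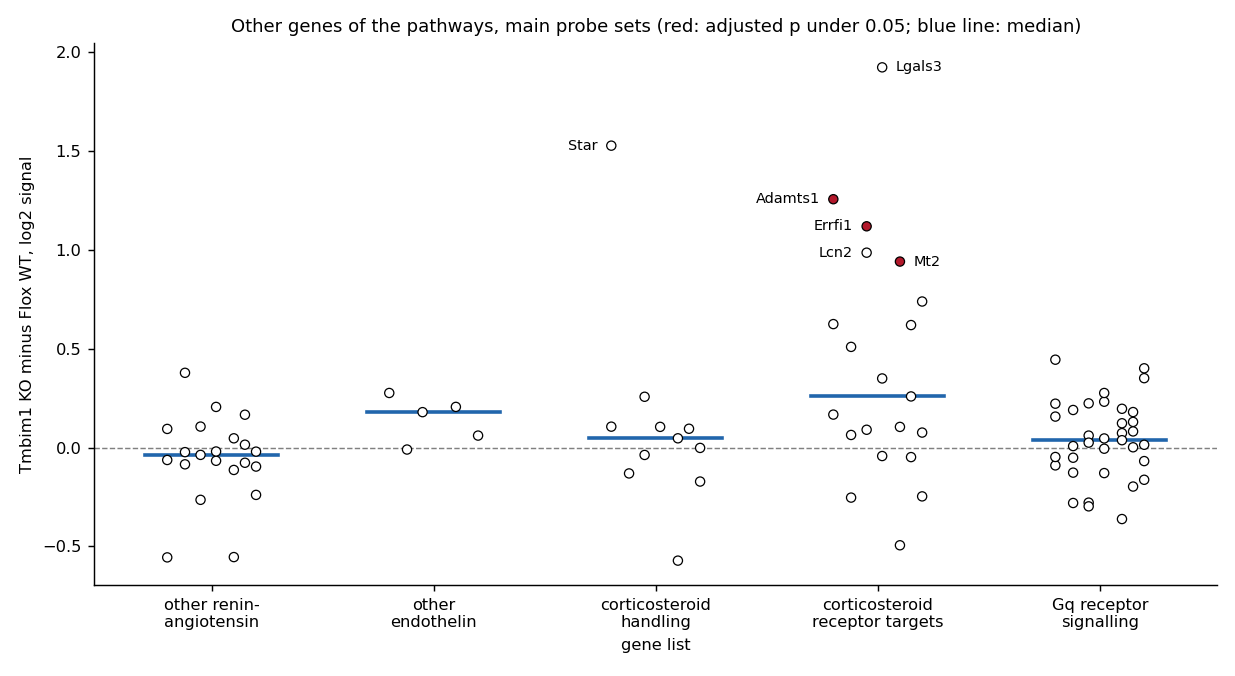
Each point is the Tmbim1 KO minus Flox WT difference in log2 signal (vertical axis) of 1 gene at its main probe set, by gene list along the horizontal axis, and blue lines are list medians. Red points passed at an adjusted p under 0.05 and are Adamts1, Errfi1 and Mt2 among the corticosteroid receptor targets; names are given for these and for genes beyond 0.9.

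The genes whose main probe sets followed each axis gene most closely were ranked by Pearson's r over the 6 arrays, as a description without a test. Ednrb was followed most closely by Dnaja4 (r = 0.997) and 1810055G02Rik (r = 0.995), whose own differences of 0.20 and 0.43 did not pass. Nr3c2 was followed by Tmtc4 and by the secreted protease gene Htra1 (r = 0.992 each), of which Htra1 fell by 1.05 (limma adjusted p = 0.00837). Ace was followed by Cald1, an actin-binding protein gene (r = 0.998), and Sf3b4 (r = 0.993), and Agtr1a by Stard3 (r = 0.993) and Sh3glb2 (r = 0.989). Edn1 had Pxt1 (r = 0.996) and Slc30a5 (r = 0.993), Ece1 had Tmem161a (r = 0.992) and Mgat3 (r = 0.991), Agt had Slc25a29 (r = 0.984) and Mex3a (r = 0.982), and Hsd11b1 had Slc44a4 (r = 0.983) and Glrx5 (r = 0.980). The dimmer main probe sets, those whose mean was not over the 40th percentile, were kept out of the ranking, and the 6 arrays share the group difference.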

How the data were processed

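Gene expression was measured in hearts of 3 Tmbim1 knockout and 3 Flox wild type mice on Affymetrix arrays, 1 array per mouse, each a separate biological sample per the labels. Per the submitters' processing notes the authors used RMA, and also limma, in versions that the sources used here do not give, and they deposited a log2 signal for each probe set. RMA makes the distributions of the arrays alike, so an overall shift between groups is removed, and it compresses differences of dim probe sets.

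Of 38208 rows, 13 control probe sets were left out. By the platform annotation 34325 probe sets had 1 symbol, 62 several and 3808 none, and a gene's main probe set is the one with the highest mean over the 6 arrays. List genes are given at that probe set unless others are mentioned, and other probe sets can differ less or the other way. The knockout minus wild type difference was fitted by limma 3.58.1 in R 4.3.3 (lmFit and eBayes, two-sided), with Benjamini-Hochberg adjustment over 38195 probe sets and a threshold of 0.05. The code was tested on simulated data. The axis genes and the gene lists were chosen with earlier results of these data known. Genes were named from Tmbim1, every axis gene, for each list described, the members that passed or otherwise the 3 with the smallest unadjusted p, and the 2 genes most like each axis gene over the 6 arrays, and others are said to be named for their role or after their values were seen. The 16 alternatives covered a replicate block, variance priors, array weights, scaling, a filter on dim probe sets (40th percentile), 1 value per gene and arrays left out. Promoter sequences are from RefSeq, GRCm38.p6, which matched 8 of the 9 axis genes. The number of arrays limits the precision of every value, and scan dates were not used here.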

Additional observations from a re-analysis of the deposited data

How the results depend on the processing

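Over 16 alternatives Ednrb and Ace stayed higher, and Nr3c2 and Agtr1a lower, in knockout hearts at their main probe sets. Of the 13 axis probe sets, 3 were called with all arrays, 0 to 1 with an array left out and 0 without both knockout array 1 and wild type array 3. At an unadjusted limma p under 0.05 these were 5 to 7 with an array left out (7.97% to 11.8% of all probe sets) and 4 without both (6.81%). Counted by gene, 2 axis genes were called, 1 with the replicate block, the trended prior or array weights, 0 with any single array left out and 0 without both arrays. Ednrb ranged from 0.75 to 0.96 with single arrays left out and was 0.71 without both. Nr3c2 ranged from -0.65 to -0.54, was -0.59 without both arrays (adjusted p = 0.265), and lost its call with the replicate block (-0.60, adjusted p = 0.0889), the trended prior (-0.60) and array weights (-0.59, adjusted p = 0.0524). Same-numbered arrays deviated together at correlations of 0.0603, 0.138 and 0.0155, which cannot show whether they shared a batch. The replicate block called 168 probe sets in all.

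Without both arrays Edn1 turned to -0.062, Agt to 0.155 and Hsd11b1 to 0.053, and the dimmer Ece1 probe sets to -0.011 and -0.019, none called. Single arrays left out gave ranges of 0.016 to 0.231 for Edn1, -0.187 to 0.108 for Ece1, -0.117 to 0.192 and -0.117 to 0.237 for its dimmer probe sets, -0.296 to 0.198 for Agt and -0.102 to 0.012 for Hsd11b1, none called. Tmbim1 ranged from -0.96 to -0.83 with single arrays left out and was -0.96 without both (adjusted p = 0.0607). Calls over all probe sets numbered 161, 102 with 1 probe set per gene, 38 to 86 with single arrays left out and 29 without both. The pathway lists had 3 calls, and 0 without both arrays. Causes of these changes were not tested.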
